A study of Homo sapiens with 15 samples.

Results

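The UGT2B genes encode enzymes of glucuronidation, and 7 of them (UGT2B4, UGT2B7, UGT2B10, UGT2B11, UGT2B15, UGT2B17 and UGT2B28) were followed here by name, out of 58302 genes counted in each library. These are the UGT2B genes with a protein product in the annotation. RNA-seq was available for 3 libraries of C4-2B, an established prostate adenocarcinoma line of the LNCaP lineage, labelled Wild type and Adenocarcinoma, and grown in RPMI medium with fetal bovine serum and no other agent named in the labels. Labels exist for 15 libraries in 5 groups of 3, and the DKD and ER cells given a scrambled control or an siRNA against Pax5 were not analysed here. No comparison between cell lines or treatments was therefore made, and the members were compared with each other, between libraries and with the rest of the genes. Nothing in the labels says that the 3 libraries came from separate cultures, so the spread between them may be technical.

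UGT2B enzymes sit in the endoplasmic reticulum, where they join glucuronic acid from UDP-glucuronic acid to steroids, bile acids and drugs, which makes them soluble and ready for export. UGT2B15 and UGT2B17 are the members best known in the prostate: they conjugate dihydrotestosterone and its reduced metabolites and so end the androgen signal in the cell, and both are known to be repressed by androgens in prostate cancer lines. UGT2B7 conjugates opioids and many steroids, UGT2B4 bile acids, UGT2B10 amines such as nicotine, and UGT2B28 and UGT2B11 are less well characterised relatives with activity on steroids or lipids. The liver is the organ best known for expressing most of the family.

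The members are near-identical copies, and a read that aligned to several places was not counted, so their sequences decide which reads could be seen. In each member the coding sequence is divided into 6 exons and holds 1584 to 1590 bases in GRCh38. The third coding exon, 132 bases long in every member, is shown because it holds both the strongest and a weaker case of likeness. It is written 5′ to 3′ on the strand of the gene, with each base that differs from UGT2B15 in capitals.
UGT2B15: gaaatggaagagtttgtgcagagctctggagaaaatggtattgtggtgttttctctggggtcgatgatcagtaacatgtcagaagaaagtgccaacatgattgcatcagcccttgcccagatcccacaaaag
UGT2B17: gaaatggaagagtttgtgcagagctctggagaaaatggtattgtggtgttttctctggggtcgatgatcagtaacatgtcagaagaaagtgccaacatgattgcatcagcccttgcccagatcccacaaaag
UGT2B4: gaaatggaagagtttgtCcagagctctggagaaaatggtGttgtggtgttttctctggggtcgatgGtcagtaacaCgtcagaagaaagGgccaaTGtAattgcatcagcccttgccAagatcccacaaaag
UGT2B7: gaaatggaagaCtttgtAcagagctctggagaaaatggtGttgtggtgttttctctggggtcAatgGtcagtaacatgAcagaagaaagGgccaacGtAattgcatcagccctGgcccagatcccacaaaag
UGT2B10: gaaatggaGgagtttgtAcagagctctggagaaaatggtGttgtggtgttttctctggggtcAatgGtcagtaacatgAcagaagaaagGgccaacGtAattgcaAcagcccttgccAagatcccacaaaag
UGT2B11: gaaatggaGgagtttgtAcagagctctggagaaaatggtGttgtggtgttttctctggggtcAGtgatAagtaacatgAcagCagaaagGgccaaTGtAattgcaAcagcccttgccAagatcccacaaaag
UGT2B28: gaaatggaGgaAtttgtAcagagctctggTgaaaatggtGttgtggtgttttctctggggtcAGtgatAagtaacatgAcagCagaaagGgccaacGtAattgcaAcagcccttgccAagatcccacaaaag
UGT2B15 (chr4:68663008-68663139, minus strand) and UGT2B17 (chr4:68560537-68560668, minus strand) have no difference in this exon, so no read that lies within it can be assigned to either gene. The others differ from UGT2B15 at 9 bases (UGT2B4, chr4:69489439-69489570, minus strand), 10 bases (UGT2B7, chr4:69102807-69102938, plus strand), 11 bases (UGT2B10, chr4:68822271-68822402, plus strand), 14 bases (UGT2B11, chr4:69208351-69208482, minus strand) and 15 bases (UGT2B28, chr4:69286752-69286883, plus strand). UGT2B11 and UGT2B28 share most of their capitals with each other.

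Over the whole coding sequence UGT2B15 and UGT2B17 differed at 55 of 1590 bases, which is 96.5% identity. Of these differences, 39 lie in the first coding exon, 12 in the sixth, 2 in the fifth, 1 each in the second and the fourth, and 0 in the third. The first coding exon thus holds most of the coding bases that differ between UGT2B15 and UGT2B17. Its densest stretch, bases 242 to 301 of the coding sequence, is shown with the 9 differing bases in capitals.
UGT2B15: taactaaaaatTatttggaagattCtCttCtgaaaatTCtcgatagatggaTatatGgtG
UGT2B17: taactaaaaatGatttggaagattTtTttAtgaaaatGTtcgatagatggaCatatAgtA
This stretch lies at chr4:68670318-68670377 in UGT2B15 and at chr4:68568184-68568243 in UGT2B17, both on the minus strand.

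UGT2B11 and UGT2B28 formed the closest pair of the family, at 97.0% identity. UGT2B10 was 94.8% identical to UGT2B11 and 94.1% to UGT2B28, and UGT2B7 was 92.7% identical to UGT2B10. UGT2B15 and UGT2B17 stood apart from the other 5, with 84.0% to 85.4% identity. By coding sequence the members thus fall into the pair of UGT2B15 and UGT2B17 and a group that holds the rest.

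**Figure D1:**
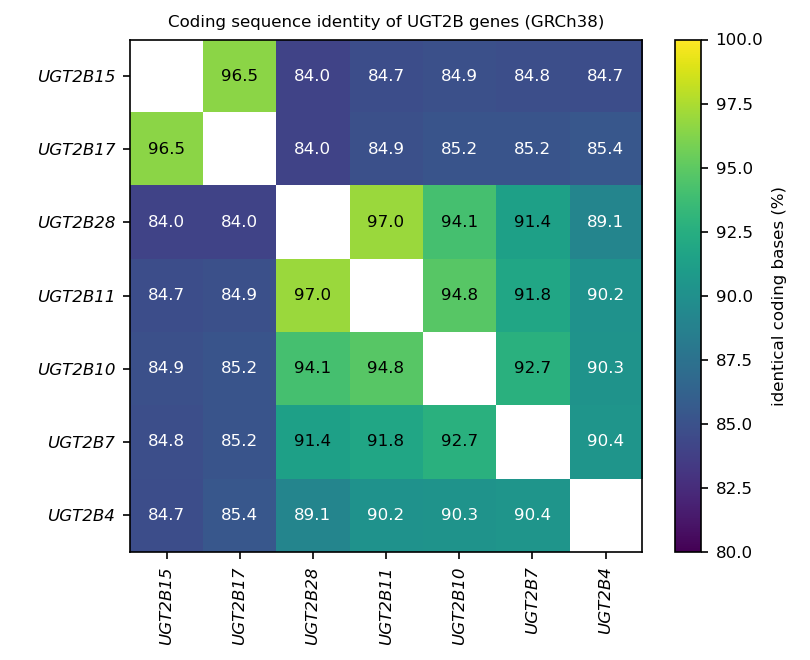
Percent of identical bases between the aligned coding sequences of each pair of the 7 members, read from GRCh38 and drawn as a colour scale from 80 to 100%. The pair of UGT2B15 and UGT2B17 (96.5%) and the pair of UGT2B11 and UGT2B28 (97.0%) are the brightest cells, and UGT2B15 and UGT2B17 are at most 85.4% identical to any other member.

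To estimate how much of each gene could not be counted, every window of 75 bases within an exon was looked up in the genome on both strands. Over the 7 members, 1300 of 11680 windows (11.1%) occurred exactly somewhere else. UGT2B11 had the highest share, 17.9%, followed by 15.1% in both UGT2B15 and UGT2B17, 15.0% in UGT2B10 and 13.2% in UGT2B28. UGT2B7, at 2.46%, and UGT2B4, at 1.01%, hold almost only sequence of their own. The share depended on the window length and was 23.6% at 50 bases, 5.23% at 100 and 0.534% at 150. The read length was not given in the sources used here, so which of these applies is open. These values describe the reference sequence, not the reads of these libraries, and a mate in unique sequence can place its partner.

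UGT2B15 and UGT2B17 shared windows with each other and with no other place: 247 windows of each were found in the other gene. By exon, 100% of the windows of the third exon, 88.0% of the second and 58.2% of the fifth were shared, against 5.76% (UGT2B15) and 5.48% (UGT2B17) of the first and 0 in the fourth and the sixth. Since the first and the sixth exons hold most of the exon length, each gene keeps long stretches where its reads are its own. UGT2B11 shared windows mostly with pseudogenes, which are decayed gene copies: 209 with UGT2B25P and 61 with UGT2B24P, beside 87 with UGT2B28. UGT2B28 shared 118 with UGT2B24P and 71 with UGT2B25P. A further 37 were placed in UGT2B11 and 50 in ENSG00000250696, a noncoding RNA whose exons overlap those of UGT2B11. Each match was given to a single gene, so 37 is too low for UGT2B11, and the count from UGT2B11 was 87. UGT2B10 shared 113 with the pseudogene UGT2B27P, 41 with UGT2B11 and 39 with UGT2B7. In the reference, the part of UGT2B15 that cannot be assigned is thus shared with UGT2B17, and that of UGT2B10, UGT2B11 and UGT2B28 mostly with pseudogenes or with each other.

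These shares left out the alternate versions of regions that the genome build also carries. With those versions included, 100% of the UGT2B10 windows and 87.1% of the UGT2B15 windows would occur more than once. UGT2B10 nevertheless had 77 counts in all. UGT2B15 had 809, which its remaining unique windows could also give. Moreover, 5 genes of the histocompatibility region, with 94.0% to 100% of their windows in alternate versions, had 983 to 16158 counts per library.

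**Figure D2:**
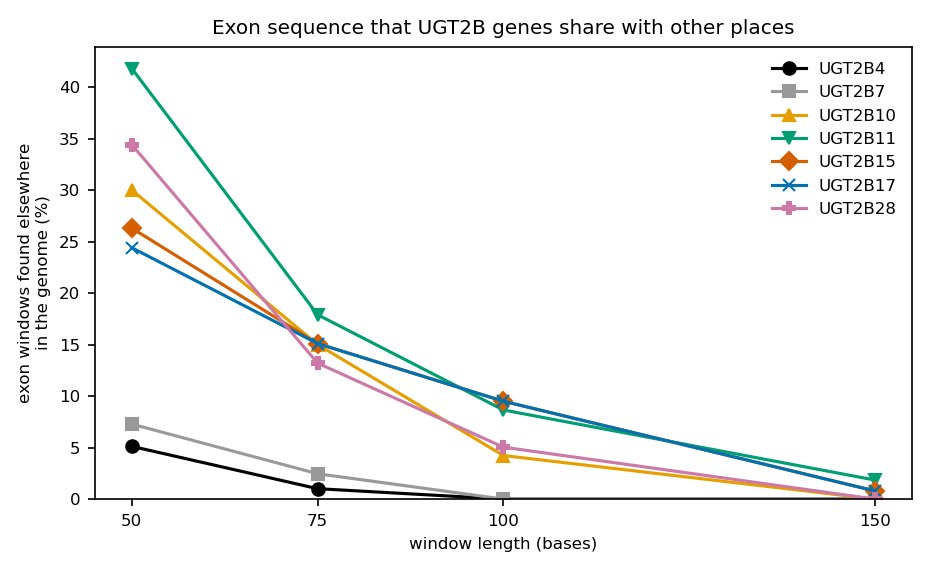
Percent of the exon windows of each member that occur exactly elsewhere in the genome (vertical axis) against the window length in bases (horizontal axis). Every line falls with length: UGT2B11 drops from 41.8% at 50 bases to 17.9% at 75 and 1.85% at 150, and UGT2B4 and UGT2B7 lie lowest from 50 to 100 bases.

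The libraries held 44992971 to 49569026 counts each, and 32271 to 32732 genes had a count. All 8 markers of prostate luminal cells were abundant, with mean levels from 197 to 1988 TPM (a count divided by gene length and scaled so that every library has the same sum). Of the markers of other cells, the 3 basal markers stayed under 1 TPM, the leukocyte marker PTPRC had 2 counts in all, CHGA and SYP, markers of neuroendocrine cells, had 1.38 and 1.31 TPM, and of the fibroblast markers COL1A2 had 0 counts and COL1A1 7.09 TPM. Of 6 hepatocyte markers, which matter here because the liver expresses this family, 2 were at 1 TPM or more in every library (TTR 3.16 and APOA1 1.51 TPM), ALB had 6, 6 and 8 counts and APOB had 0. Their summed level was 4.69 to 5.34 TPM.

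C4-2B cells expressed 4 UGT2B genes above 1 TPM in every library: UGT2B15, UGT2B28, UGT2B11 and UGT2B17. UGT2B10 was above it in 1 library, and UGT2B7 and UGT2B4 were barely detected. Among all genes 32.8% were at 1 TPM or more in every library, and among 19708 protein-coding genes 61.2%, so 4 of 7 is near the share of coding genes. The 7 members together summed to 23.9, 21.7 and 23.9 TPM in replicates 1 to 3 (a mean of 23.2 with an SD of 1.30, n = 3), and their counts added up to 2170. All values are per length, so that members can be set beside each other. In bulk RNA, fewer cells that express a gene and less of its RNA per cell cannot be told apart.

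UGT2B15 (ENSG00000196620, chr4:68646630-68670628, minus strand) was the most abundant member. It had 265, 268 and 276 counts, and its level was 8.80, 8.11 and 9.00 TPM (8.63 ± 0.468, SD, n = 3). Among protein-coding genes this level was at the 54.2nd percentile, slightly over the middle, so the leading member of the family was a gene of ordinary abundance. The 3 libraries lay close together, with a coefficient of variation (SD over mean) of 5.42%, against a median of 7.71% for coding genes with similar counts. UGT2B15 held 36.8%, 37.4% and 37.6% of the summed level of the family.

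UGT2B17 (ENSG00000197888, chr4:68537184-68568527, minus strand), with an exon length of 2077 bases equal to that of UGT2B15, was lower. It had 108, 85 and 103 counts and a level of 3.59, 2.57 and 3.36 TPM (3.17 ± 0.533, SD, n = 3), which is the 45.0th percentile of coding genes. Replicate 2 was the lowest in both UGT2B15 and UGT2B17. UGT2B15 exceeded UGT2B17 2.45-fold, 3.15-fold and 2.68-fold in replicates 1 to 3, a mean log2 ratio of 1.46 ± 0.18 (SD, n = 3). The gene pair has equal lengths, so the ratio in counts and in TPM was the same. Their numbers of shared windows were equal at 75 bases (247 each) but not at 50 bases (469 in UGT2B15 and 435 in UGT2B17).

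UGT2B28 (ENSG00000135226, chr4:69280499-69295050, plus strand) came second in the order. Its 132, 138 and 158 counts gave 4.97, 4.73 and 5.84 TPM (5.18 ± 0.582, SD, n = 3), the 48.8th percentile of coding genes. Replicate 3 was the highest, and all 3 libraries were below every library of UGT2B15.

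UGT2B11 (ENSG00000213759, chr4:69199951-69214731, minus strand) had 179, 183 and 162 counts, more than UGT2B28, over a longer exon length of 2340 bases against 1833. Its level was 5.28, 4.91 and 4.69 TPM (4.96 ± 0.298, SD, n = 3), the 48.5th percentile. Of its exon bases, 418 (17.9%) lie under exons of a long noncoding RNA on the opposite strand (ENSG00000250696), and reads there were counted for neither gene, since the counting did not use strand. Its level is therefore a lower limit: with those bases left out of the length it was 6.04 TPM, above UGT2B28. The noncoding RNA itself had 3, 2 and 2 counts. No exon of the other 6 members overlaps another gene.

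UGT2B10 (ENSG00000109181, chr4:68815993-68831196, plus strand) had 33, 28 and 16 counts and 1.18, 0.911 and 0.561 TPM (0.884 ± 0.310, SD, n = 3). Replicate 1 was the highest and alone over 1 TPM, and replicate 3 was the lowest. The mean was at the 37.0th percentile of coding genes.

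UGT2B7 (ENSG00000171234, chr4:69051363-69112987, plus strand), a major enzyme of the liver and kidney, had 4, 15 and 12 counts, or 0.122, 0.417 and 0.360 TPM (0.300 ± 0.156, SD, n = 3). UGT2B4 (ENSG00000156096, chr4:69480165-69526014, minus strand), the bile acid enzyme, had 0, 1 and 4 counts, or 0, 0.0251 and 0.108 TPM (0.0444 ± 0.0566, SD, n = 3). The 0 in replicate 1 allows a level of up to 0.0826 TPM (3 counts in that library). UGT2B4 and UGT2B7 are also the members with the least shared sequence (1.01% and 2.46% of windows).

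**Figure D3:**
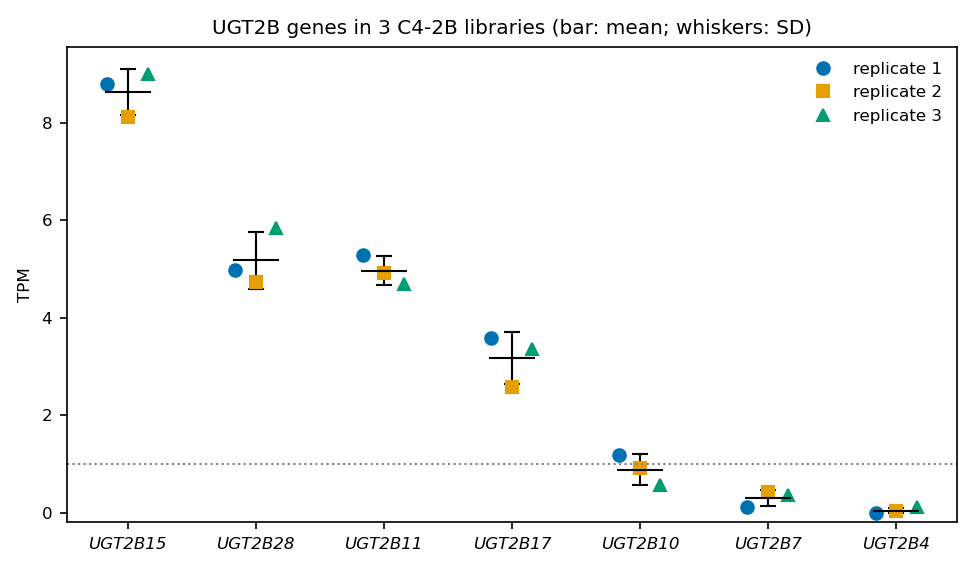
TPM of the 7 members in each of the 3 C4-2B libraries (points; horizontal bars are means and whiskers SD), with a dotted line at 1 TPM. UGT2B15 lies at 8.11 to 9.00 TPM, UGT2B28 and UGT2B11 overlap between 4.69 and 5.84, UGT2B17 lies at 2.57 to 3.59, and UGT2B10, UGT2B7 and UGT2B4 are at or under 1.18.

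In the order of levels, 5 of 6 neighbouring pairs did not overlap between libraries. The lowest library of UGT2B15 (8.11 TPM) was above the highest of UGT2B28 (5.84), a 1.67-fold difference of means and a log2 difference of 0.74 ± 0.11 (SD, n = 3). UGT2B28 and UGT2B11 could not be placed in order: their means were 1.04-fold apart, and UGT2B28 was higher in 1 of 3 libraries. The exact two-sided permutation test, which did not pair the genes by library, gave p = 0.600. UGT2B11 exceeded UGT2B17 1.56-fold (lowest 4.69 against highest 3.59 TPM), and UGT2B17 exceeded UGT2B10 3.59-fold (2.57 against 1.18). UGT2B10 exceeded UGT2B7 2.95-fold, with 0.561 against 0.417 TPM between the nearest libraries, and 1.89-fold without replicate 1. UGT2B7 and UGT2B4 were 6.75-fold apart in their means, a value that was 4.46 without replicate 2 and 21.5 without replicate 3. Their nearest libraries, at 0.122 and 0.108 TPM, each rested on 4 counts. For the 5 pairs that did not overlap the exact two-sided permutation p was 0.1, the smallest that 3 libraries against 3 can give, so none could pass 0.05.

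UGT2B28 held 22.3 ± 1.88%, UGT2B11 21.4 ± 1.62% and UGT2B17 13.6 ± 1.6% of the summed level (SD, n = 3), beside 37.3 ± 0.445% for UGT2B15. These 4 made up 94.7 ± 0.975% of the family. UGT2B10 held 3.83 ± 1.33%, UGT2B7 1.31 ± 0.726% and UGT2B4 0.189 ± 0.235%.

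The sums over the 3 libraries, with exact Poisson 95% intervals, were 809 counts (754 to 867) for UGT2B15, 524 (480 to 571) for UGT2B11, 428 (388 to 471) for UGT2B28 and 296 (263 to 332) for UGT2B17. UGT2B10 had 77 (60.8 to 96.2), UGT2B7 31 (21.1 to 44) and UGT2B4 5 (1.62 to 11.7). These intervals and the limit for a 0 cover counting error alone and are too narrow, because the mates of a read pair were counted separately.

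The libraries were then compared with each other, member by member. A chi-square test of each gene's 3 counts against the library sizes, divided by 2 for the mates, called 0 of the 6 members with at least 30 counts, against 0.792% of 22229 genes tested (176, Benjamini-Hochberg adjusted p under 0.05). None of the 6 had an unadjusted p under 0.05, which 11.3% of all tested genes had, and the lowest adjusted p was 0.680 (UGT2B10). Without the division by 2, 0 of the 6 members were called, against 17.3% of the 22229 genes, and 1 member had an unadjusted p under 0.05, with a lowest adjusted p of 0.140. The coefficient of variation rose as the counts fell, from 6.01% in UGT2B11 and 11.2% in UGT2B28 to 16.8% in UGT2B17, 35.1% in UGT2B10, 52.2% in UGT2B7 and 127% in UGT2B4. Coding genes within 1.5-fold of the same counts had medians of 9.40%, 10.4%, 13.0%, 25.4%, 39.0% and 97.0%.

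The genes with levels most like UGT2B15 over the 3 libraries were CASP6, SEPTIN6 and ZNF615, at Euclidean distances of 0.0243, 0.0262 and 0.0310 in log2(TPM + 1). For UGT2B28 they were ZSCAN31 (0.0676), THAP9 (0.0715) and LYSMD4 (0.0778). With 3 libraries of the same cells this likeness is mostly that of the level itself, and 482 coding genes lay within 10% of the mean of UGT2B15 and 360 within 10% of that of UGT2B28.

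All 7 members lie in the UGT2 cluster of chromosome 4, a stretch of 1144 kb (chr4:68509441-69653249) with 49 annotated genes. The members held 2170 of its counts (94.6%), and the 42 other genes held 124 between them, 23 of those genes with 0 counts. None of the 42 reached 1 TPM in every library. The level of a member did not follow its place in the row: UGT2B17 and UGT2B15 lie at the left end, UGT2B11 and UGT2B28 right of the centre, and the low UGT2B10 and UGT2B7 between them. The 3 UGT2A genes, whose best known member acts in the olfactory lining, had 1, 0 and 2 counts over the 3 libraries for UGT2A1, UGT2A2 and UGT2A3. UGT2A1 and UGT2A2 share exons, so reads there were counted for neither.

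The 5 pseudogenes with a UGT2B symbol had 55 counts in all. Many other pseudogenes of the cluster have no symbol, and ENSG00000251691, the highest of those, had 6, 14 and 6 counts (a mean of 0.804 TPM). UGT2B27P, which shares the most windows with UGT2B10, had 6, 13 and 11 counts, and UGT2B24P had 0, 7 and 8. UGT2B25P, which shares the most windows with UGT2B11, had 3, 2 and 2. These pseudogenes share sequence with UGT2B10, UGT2B11 and UGT2B28 and can lose reads in the same way, so their counts are uncertain too.

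**Figure D4:**
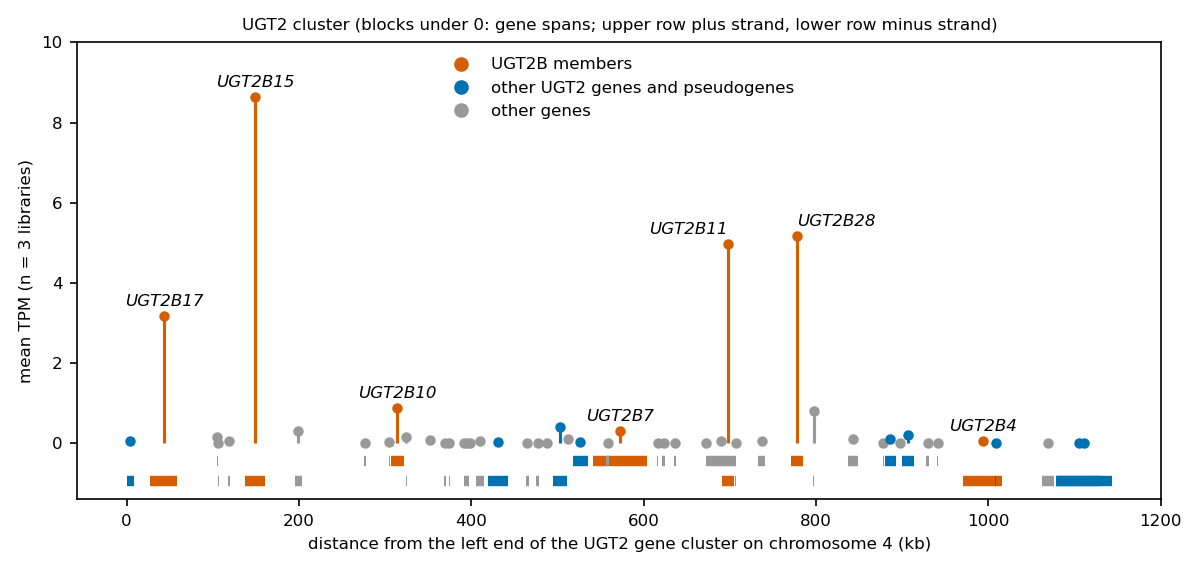
Mean TPM over 3 libraries (vertical axis) of every gene of the UGT2 cluster against its distance in kb from the left end of the cluster on chromosome 4; blocks under 0 are the gene spans, plus strand above minus strand. The 4 tall lines are UGT2B17 and UGT2B15 near the left end and UGT2B11 and UGT2B28 between 690.5 and 785.6 kb, while every gene that is not a member stays under 1 TPM.

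The sequence before the start of a gene was in the promoter table of RefSeq (GRCh38.p14) for 4 of the 7 members; UGT2B4, UGT2B17 and UGT2B28 had no entry. The 200 bases before the start are shown for UGT2B15, the most abundant member, and for UGT2B11 and UGT2B10, a pair with nearly the same promoter and unlike levels. Capitals mark letters of both motifs found there among those reported here. These are TGTTTAC of forkhead factors such as FOXA1 (read as GTAAACA on the opposite strand) and TATAAA, the letters of a TATA box. Other motifs were left out and are not marked, so lower-case letters do not show that another motif is lacking.
UGT2B15: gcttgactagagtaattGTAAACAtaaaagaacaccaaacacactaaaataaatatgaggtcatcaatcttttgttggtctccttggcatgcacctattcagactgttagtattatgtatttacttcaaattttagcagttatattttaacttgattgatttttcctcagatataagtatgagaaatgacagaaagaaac
UGT2B11: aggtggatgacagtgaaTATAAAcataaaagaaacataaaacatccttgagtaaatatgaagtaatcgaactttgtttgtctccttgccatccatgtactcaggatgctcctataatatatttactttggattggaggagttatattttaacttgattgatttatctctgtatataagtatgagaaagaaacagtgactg
UGT2B10: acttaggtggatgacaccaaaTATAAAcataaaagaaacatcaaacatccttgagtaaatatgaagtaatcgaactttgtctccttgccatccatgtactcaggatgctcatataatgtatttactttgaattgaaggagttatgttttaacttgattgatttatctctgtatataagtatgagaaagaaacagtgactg
They lie at chr4:68670653-68670852 (minus strand), chr4:69214749-69214948 (minus strand) and chr4:68815794-68815993 (plus strand). In the 250 bases before the start the promoters of UGT2B10 and UGT2B11 were 91.6% identical, although UGT2B11 had 4.96 TPM and UGT2B10 0.884. UGT2B15 was 72.8% identical to UGT2B11 and 71.2% to UGT2B10, and UGT2B7 was 62.8% to 66.8% identical to the others. The start used for UGT2B7 lies next to the third exon of the counted gene (from chr4:69096475), not at that gene's left end (chr4:69051363).

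Searched on both strands in windows of 300 bases (250 before to 50 after the start), TGTTTAC was found in UGT2B15 alone of the 4, first base at -183, and in 3.42% of 35116 promoters of the table. TATAAA was found in UGT2B10 (first bases at -244, -230 and -179) and in UGT2B11 (-248 and -183), and in 11.5% of promoters. No exact match lay nearer to the start than these. Variants of the letters were not searched, such as tatataag, which the UGT2B10 and UGT2B11 sequences above hold closer to the start. TGTTTGC, another forkhead motif (3.89% of promoters), was in none of the 4. A match is a run of letters and not a measured site, and the lack of a match covers this window alone.

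Of 8 genes known to regulate UGT2B transcription, 2 were at 1 TPM or more in every library. FOXA1, a forkhead pioneer factor of prostate and liver, had 325, 332 and 332 TPM, and POU2F1 20.1, 20.9 and 21.3 TPM. FOXA1 exons overlap TTC6 on the opposite strand, so its level is a lower limit. Factors best known in liver were near 0: HNF4A had 4, 2 and 2 counts, and NR1H4, the bile acid receptor, 0. NR1I3 was at 1.02, 0.760 and 1.25 TPM.

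UDP-glucuronic acid is the sugar donor that every member needs. Of 6 genes listed around its supply and use, 5 were at 1 TPM or more in every library, and SLC35D1 was not. UGDH, which oxidises UDP-glucose to UDP-glucuronic acid, had 45.4, 45.7 and 46.7 TPM, more than the 7 members together. PGM1 (21.5 ± 1.01 TPM) and UGP2 (20.2 ± 0.416 TPM, SD, n = 3) make UDP-glucose, and UXS1, which uses UDP-glucuronic acid up for UDP-xylose, had 11.8 ± 0.874 TPM. SLC35D1, a carrier of UDP-glucuronic acid into the endoplasmic reticulum, was low at 0.705, 0.673 and 0.769 TPM, and its relative SLC35D2 had 16.1 ± 1.45 TPM. UGDH and PGM1 have exons under genes of the opposite strand, so their levels are lower limits.

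For the fate of glucuronides, 3 of 6 genes were at 1 TPM or more in every library. The exporters ABCC4 (168, 172 and 169 TPM) and ABCC1 (159, 161 and 162 TPM) were each above the summed level of the 7 members. GUSB, the lysosomal enzyme that removes glucuronic acid again, had 46.9, 46.1 and 49.2 TPM. ABCC2 and ABCC3, the exporters best known in liver, had mean levels of 0.148 and 0.149 TPM, and ABCG2 had 0.647.

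The members' androgen substrates are made and turned over by a list of 10 genes, of which 3 were at 1 TPM or more in every library. SRD5A1, which makes dihydrotestosterone from testosterone, had 20.4, 17.8 and 19.4 TPM, and its relative SRD5A3 25.4, 25.9 and 27.3. HSD17B6, which oxidises a reduced metabolite back to dihydrotestosterone, had 3.31, 4.95 and 4.14 TPM, a level near that of UGT2B17. SRD5A2, HSD17B3 and AKR1C4 had 0 counts, and the other 4 (HSD17B2, AKR1C1, AKR1C2 and AKR1C3) had 3 to 23 counts. The AKR1C genes are near-identical copies of each other as well, so their low counts are uncertain. SRD5A3 and HSD17B6 have exons under genes of the opposite strand and are lower limits.

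Sulfation is the other conjugation of steroids. SULT2B1 had 6.01, 5.68 and 5.64 TPM, which overlaps the range of UGT2B28, and STS, which removes sulfate, 11.7, 11.4 and 11.0 TPM. SULT1E1 had 1 count and SULT2A1 0.

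Outside the UGT2 family, UGT8, which adds galactose to ceramide, was the single gene of 10 measured UGT genes at 1 TPM or more, with 17.6, 17.5 and 17.8 TPM, above every UGT2B member. The 7 measured UGT1A genes, the bilirubin and drug branch of the family, had 0 to 4 counts each in all. They share their last exons, and reads there were counted for none of them, so their low counts cannot be set beside the members. UGT3A1 had 20 counts and UGT3A2 0.

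**Figure D5:**
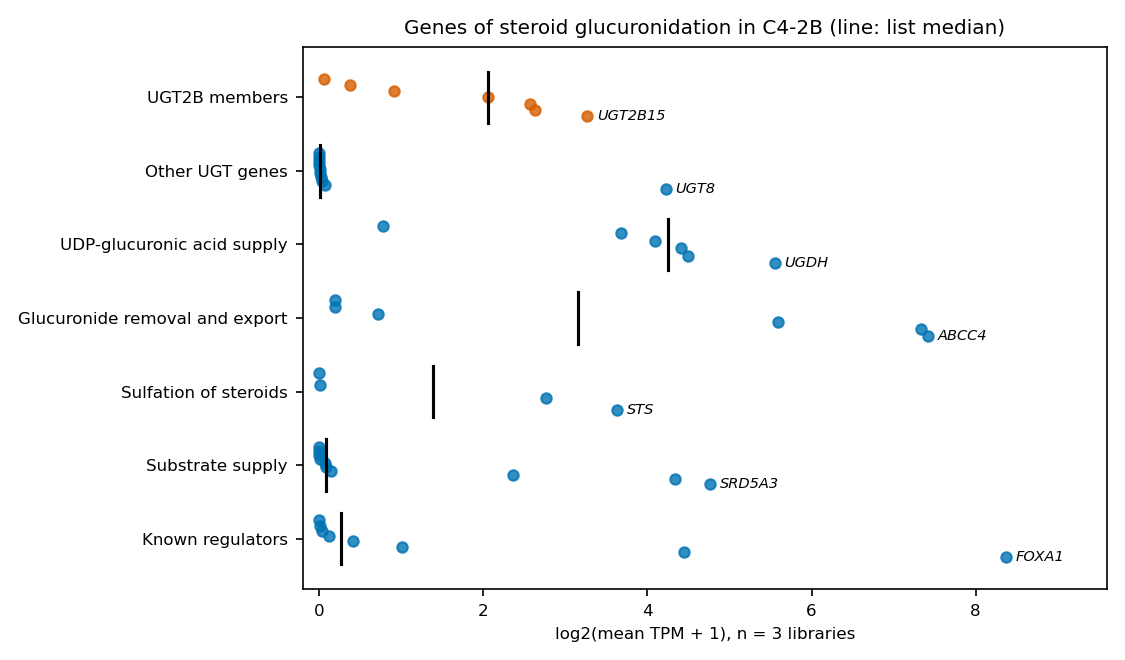
log2(mean TPM + 1) over 3 libraries of each gene (points) in 7 lists of the pathway, with the list median as a black line and the highest gene of each list named. UGT2B15 tops the members at 8.63 TPM, below UGDH (45.9 TPM), ABCC4 (170 TPM) and FOXA1 (330 TPM).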

How the data were processed

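RNA-seq counts of 3 C4-2B libraries were analysed, grouped by the sample titles. The labels and methods describe directional, paired-end libraries after removal of ribosomal RNA, whose reads the authors aligned to GRCh38 with STAR 2.7.0f. The deposited gene counts are unnormalized and came from featureCounts 1.6.3 on Ensembl release 90, per the file headers without strand, with mates counted separately and with reads of several places or several genes left out. Gene length, the other deposited value used, is the union of exon bases, which was checked for all 58302 genes.

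TPM was computed from counts and lengths over every gene of the table. Symbols were matched by Ensembl identifier for 57532 genes, and UGT1A3 and UGT1A5 were not matched. Library totals were 44992971 to 49569026 counts. Libraries were compared by a chi-square test with 2 degrees of freedom on TMM-scaled library sizes (edgeR 4.0.16, R 4.3.3; DESeq2 1.42.0 size factors as an alternative), divided by 2 because mates were counted apart, over genes with at least 30 counts, with Benjamini-Hochberg adjustment; the test was first checked on simulated counts. Neighbours in the order were compared by range and by exact permutation without pairing by library (scipy 1.17.1). Shared sequence was searched as exact windows of 75 bases in 194 of 455 sequences of GRCh38, the 261 alternate ones left out. Coding exons were read from GRCh38 and aligned with Biopython 1.88.

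Genes named were all members, pathway lists taken from textbook knowledge, the genes of the cluster, and for the 2 highest members the 3 coding genes nearest in log2(TPM + 1); a list is given by counts, with 2 to 4 examples. The members and lists were chosen with earlier results of these data known. A few listed genes and motifs are left out here, a shortening made with their values known. Protein sequences were not used here.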

Additional observations from a re-analysis of the deposited data

How the results depend on the processing

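The summed TPM of the members (23.2) was 15.4 in CPM, 34.8 with unique window starts as length, 27.3 with the length times its unique share (chosen after seeing the data), 33.5 without the 10 most abundant and mitochondrial genes in the denominator and 32.3 with protein-coding genes as the denominator. Without each replicate in turn it was 22.8 to 23.9. The window-based lengths were used for the members alone, not for the other genes. Window starts also leave out bases at exon ends, because no window crosses an exon boundary, so 34.8 does not reflect shared sequence alone. The share of UGT2B15 fell from 37.3% to 35.6% with exon bases outside other genes as length and was 37.1% to 37.5% without each replicate. The log2 ratio of UGT2B15 to UGT2B17 was 1.36 to 1.54 without each replicate. The shared windows were 23.6% at 50 bases, 5.23% at 100 and 0.534% at 150.

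UGT2B11 passed UGT2B28 with CPM, with lengths outside other genes (6.04 against 5.18 TPM), with the length times its unique share (6.04 against 5.96) and without replicate 3; 5 pairs of neighbours were apart throughout, and 6 with CPM. The number of members at 1 TPM or more stayed at 4, and was 5 at a threshold of 0.5 TPM, which adds UGT2B10. No alternative called a member between libraries (adjusted p of at least 0.140 throughout), while the share of all tested genes called ran from 0.186% (without replicate 1) to 17.3% (chi-square not divided by 2). Single members moved by more than their SD in 5 of 7 cases with CPM, with unique starts and with either denominator, and in 0 with TMM scaling or without a replicate, although UGT2B4 ranged from 0.0125 TPM (without replicate 3) to 0.0666 (without replicate 1) around 0.0444. No paired analysis was possible because the groups share replicate numbers but 1 group alone had files analysed here. UGT2B4 and UGT2B7, at 5 and 31 counts, are limited by depth.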
